A study of Mus musculus with 8 samples.

Results

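The expression of 10 genes for matricellular and adhesive matrix proteins was followed in pericytes and smooth muscle cells (SMCs) of mouse skeletal muscle. The members were taken by gene symbol and were Sparc, Sparcl1, Thbs1, Thbs2, Tnc, Tnxb, Postn, Spp1, Fn1 and Vcan, which are 10 of the 37979 genes listed for these libraries. Cells came from the hindlimb muscles of Ai14+/−;SM22α-Cre+ mice of both sexes at 3 to 4 months of age. In these mice a Cre driven by the SM22α promoter leaves a permanent tdTomato label, so any cell that used the promoter at an earlier stage also carries it. Cells stained for CD31 or CD45 were to be gated out, and the remaining PDGFRβ+ cells were sorted into tdTomato− cells, taken as pericytes, and tdTomato+ cells, taken as SMCs. There were 4 libraries of each, every one pooled from several sorts, and all 8 carry the same batch label. The paper nevertheless proposes batch effects from combining sorts, beside differences between individuals, as possible sources of variation among replicates.

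Matricellular proteins are secreted into the extracellular matrix but mostly act on cells rather than bear load. They bind integrins, syndecans, growth factors, proteases and collagen, and many are known for high expression in development and after injury. Fibronectin, tenascin-X and versican lie beside them in the same matrix, where fibronectin forms adhesive fibrils, tenascin-X associates with collagen fibrils and versican fills the space with hyaluronan. In muscle such proteins are mainly products of stromal cells, and fibroblasts, tenocytes and vascular cells can all make them.

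Levels are given as FPKM, a read density scaled to transcript length and library size. Values joined by ± are the mean and the SD over the 4 libraries of a group. Differences are SMC minus pericyte on the log2(FPKM + 1) scale with the standard error (SE), a scale that understates the change of low genes. The test was limma's moderated test over the 27414 genes above 0 FPKM in at least 1 library, with Benjamini-Hochberg adjustment (q value, passed below 0.05). Summed over all genes, pericyte libraries held 690247 to 1190435 FPKM, and SMC libraries held 656405 to 737839 FPKM. Relative depth, read from the lowest values, was 0.866 to 1.04 in pericytes and 0.988 to 1.07 in SMCs, and the number of reads behind a value is unknown.

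The labelled cell types were checked against marker genes. Of all genes tested, 11.2% passed with the higher level in SMCs and 10.6% with the higher level in pericytes. All 7 smooth muscle genes had a higher mean in SMCs, with log2 differences of 0.76 to 1.51 (median 1.34), but 0 passed the limma test (3 had an unadjusted p below 0.05), and their summed level was 590 to 1892 FPKM in pericytes and 1775 to 5703 FPKM in SMCs. Of 10 fibroblast genes, 9 were higher in SMCs. The other, Dcn, was higher in pericytes (840 ± 348 FPKM, log2 difference -9.62, limma q = 4.9e-06) and was listed at 0 in every SMC library. Lum, of the same list, had 1131 to 1971 FPKM in these SMC libraries. Whether the 0 of Dcn was an absence or a missing value cannot be told from FPKM, so its difference is uncertain. The sum of the 10 genes was 1130 to 2109 FPKM in pericytes and 5555 to 6782 FPKM in SMCs. Dcn alone held 509 to 1165 FPKM of the pericyte sum. Endothelial genes were higher in SMCs in 6 of 7 cases (74.2 to 121 FPKM in sum against 283 to 853 FPKM), as were tendon genes in 5 of 6 (211 to 663 FPKM against 2609 to 3974 FPKM). All 4 T lymphocyte and all 4 B lymphocyte genes were higher in pericytes, with sums of 1077 to 1845 and 759 to 1964 FPKM against 13.3 to 24.0 and 8.77 to 30.0 FPKM in SMCs. No gene of these lists other than Dcn was at 0 in a whole group. The part of these cell types in the results that follow was not tested, and in bulk samples fewer cells of a type and less RNA per cell cannot be told apart.

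All 10 genes had a higher mean in SMCs than in pericytes, and 9 of them passed the test, the exception being Thbs1. Across all genes tested, 11.2% were called higher in SMCs and 10.6% higher in pericytes, and 0 of the 10 genes were higher in pericytes at a limma q value or at an unadjusted p below 0.05. The fold rule of a log2 difference above 2 with a q value below 0.05 was met by 7 of the 10 genes, against 2.66% of all genes. Every SMC library lay above every pericyte library for 9 of the 10, against 12.5% of all genes. Among the 13349 genes with at least 1 FPKM in 4 or more libraries, complete separation was seen in 21.2%. A separate fit to these genes alone called 22.8% of them higher in SMCs, and it called 9 of the 10 genes. The median log2 difference of the 10 genes was 2.55, and that of all genes tested was -0.02. Rescaling the libraries to a common sum (TPM) moved the share of called genes that were higher in SMCs from 51.2% to 63.8% and left 9 of the 10 genes called.

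**Figure D1:**
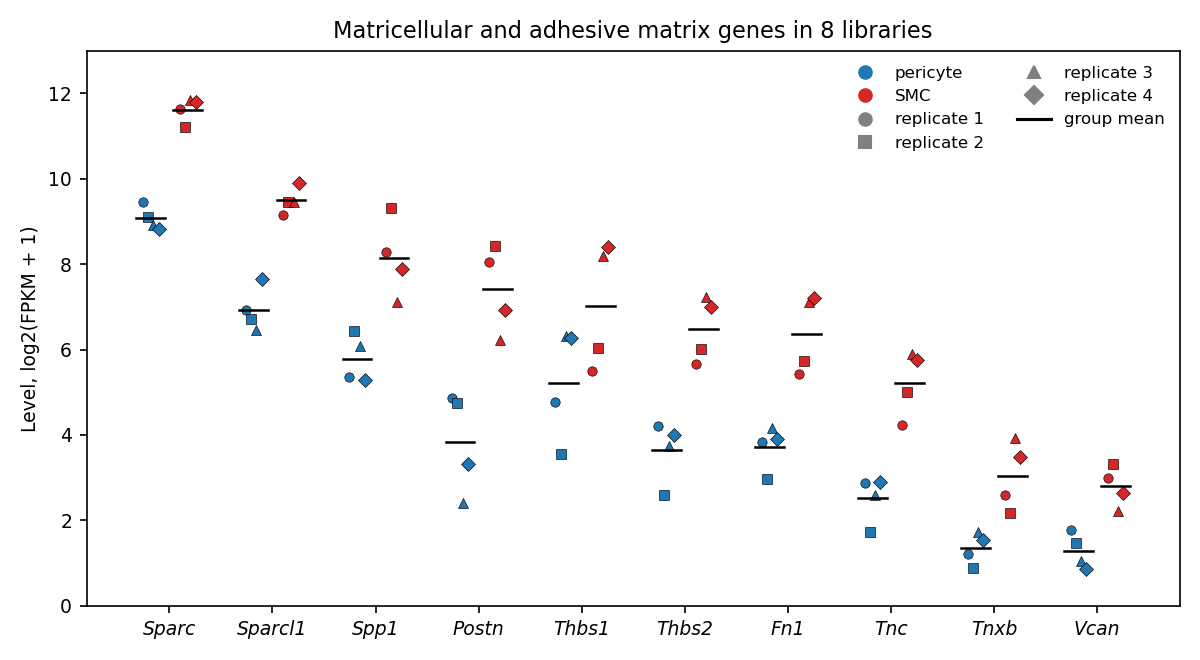
Level of each gene in log2(FPKM + 1), with pericyte libraries in blue, SMC libraries in red, the symbol giving the replicate and the bar the group mean of 4 libraries. Red and blue points are fully apart for every gene except Thbs1, whose SMC replicates 1 and 2 (44.1 and 64.3 FPKM) sit below pericyte replicates 3 and 4 (78.3 and 76.1 FPKM).

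**Figure D2:**
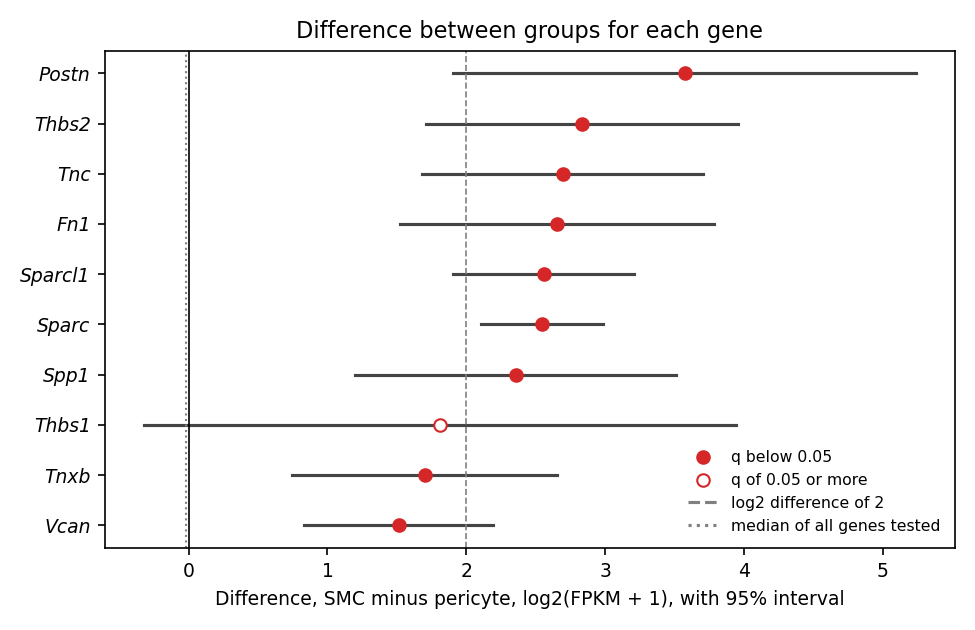
SMC minus pericyte difference on the log2(FPKM + 1) scale for each gene, with limma's 95% interval; filled points passed a q value of 0.05. Postn had the highest estimate at 3.57, and the interval of Thbs1, from -0.32 to 3.94, spans 0.

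Promoter sequences were available for 7 of the 10 genes in the RefSeq table, and 4 are shown because they belong to the most abundant member (Sparc), to the member with the greatest difference (Postn), and to a pair (Spp1 and Thbs2) that moved in opposite directions among the SMC replicates. Each is the 250 bases before the start site, 5′ to 3′ on the gene's strand. The RefSeq sequences (GRCm38.p6) matched NCBI Build 37, the build of the deposited values, at 1 place each, and the positions are those of Build 37. Capitals mark a match, on either strand, to a motif named in the next paragraph.

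Sparc, chr11:55233583-55233832, minus strand: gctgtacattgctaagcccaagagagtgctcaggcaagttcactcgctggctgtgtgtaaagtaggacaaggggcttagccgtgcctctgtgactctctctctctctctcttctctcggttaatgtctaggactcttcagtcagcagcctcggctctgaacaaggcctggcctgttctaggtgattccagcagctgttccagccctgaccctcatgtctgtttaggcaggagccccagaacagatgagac
Postn, chr3:54164779-54165028, plus strand: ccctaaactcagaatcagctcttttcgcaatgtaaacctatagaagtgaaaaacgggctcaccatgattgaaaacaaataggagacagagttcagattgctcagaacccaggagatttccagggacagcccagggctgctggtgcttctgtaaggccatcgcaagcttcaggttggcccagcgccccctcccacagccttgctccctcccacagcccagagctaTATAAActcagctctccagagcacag
Spp1, chr5:104863880-104864129, plus strand: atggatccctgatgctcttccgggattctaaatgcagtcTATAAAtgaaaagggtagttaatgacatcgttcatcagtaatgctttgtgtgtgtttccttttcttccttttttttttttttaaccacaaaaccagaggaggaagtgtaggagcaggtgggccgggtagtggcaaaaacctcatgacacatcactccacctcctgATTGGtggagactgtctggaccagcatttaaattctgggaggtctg
Thbs2, chr17:14831270-14831519, minus strand: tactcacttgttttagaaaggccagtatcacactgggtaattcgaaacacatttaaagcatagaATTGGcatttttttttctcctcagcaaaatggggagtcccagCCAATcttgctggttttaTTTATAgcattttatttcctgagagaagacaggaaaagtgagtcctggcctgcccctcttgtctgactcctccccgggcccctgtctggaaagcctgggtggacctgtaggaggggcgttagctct

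The letters searched on both strands were those of the TATA box (TATAAA), the CCAAT box, the core bound by TEAD factors (GGAATG) and the site of AP-1 factors (TGANTCA). No match overlapped another in these windows. The TATA box letters were found in 4 of the 7 windows (Postn, Tnc, Spp1 and Thbs2) and in 12.4% of the same 250 bases before each of 32851 start sites. Counted from the start site they span bases -26 to -21 in Postn, -205 to -200 in Tnc, -211 to -206 in Spp1 and -126 to -121 in Thbs2. The CCAAT box was found in 3 of 7 (Spp1, Vcan and Thbs2) against 33.8% of all windows. The AP-1 letters were found in 1 of 7 (Tnxb) against 6.75%, and the TEAD letters in 0 of 7 against 12.6%. Sparc had none of the 4 motifs in its window. The Tnc window lies 26210 bases from the start of the gene model used here, so it belongs to another start site.

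The SPARC family was the most abundant. Sparc encodes a collagen-binding glycoprotein that takes part in collagen assembly and basement membrane turnover, and lies on chromosome 11 from 55208002 to 55233582 on the minus strand, with 10 exons after merging transcripts. Its level in pericyte replicates 1 to 4 was 705, 550.3, 479 and 452 FPKM, and in SMC replicates 1 to 4 it was 3171, 2391, 3659.6 and 3567 FPKM. The lowest SMC library was 3.39 times the highest pericyte library. This gave a log2 difference of 2.55 (SE 0.19, limma q = 1.4e-04), with the smallest error of the 10 genes. Sparc ranked between 13th and 17th of all genes listed in every SMC library and between 142nd and 371st in the pericyte libraries.

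Sparcl1 encodes hevin, a relative of SPARC that is abundant in vessel walls and in brain, and lies on chromosome 5 from 104508130 to 104543107 on the minus strand. It had 119.7, 103, 86.9 and 201 FPKM in the pericyte libraries and 568, 701, 703 and 955 FPKM in the SMC libraries. All SMC libraries were above the highest pericyte library, replicate 4, and replicate 4 was also the highest SMC library. The log2 difference was 2.56 (SE 0.28, limma q = 7.5e-04). Gm16990, annotated on the opposite strand, shares 201 exonic bases with Sparcl1 and was at most 0.228 FPKM.

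Among other genes of the SPARC family, Smoc2, a calcium-binding matrix protein, rose from 78.2 ± 40.7 FPKM in the pericyte libraries to 1073 ± 213 FPKM in the SMC libraries, a log2 difference of 3.89 (limma q = 4.4e-04). Fstl1 rose from 51.6 ± 24.2 to 403 ± 178 FPKM, a log2 difference of 2.96 (limma q = 0.00308). Spock2 and Spock3, which encode proteoglycans called testicans, were also higher in SMCs, with log2 differences of 1.63 and 2.52. Smoc1 and Spock1 did not pass, with log2 differences of 0.94 and 0.88 and limma q values of 0.402 and 0.611. Thus 4 of these 6 relatives passed, all with the higher level in SMCs, against 11.2% of all genes tested.

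Thrombospondins are calcium-binding oligomers that bind CD36, CD47 and integrins, and thrombospondin-1 is a known activator of latent TGF-β and an inhibitor of angiogenesis. Thbs1 lies on chromosome 2 from 117937612 to 117952869 on the plus strand. Pericyte libraries had 26.2, 10.7, 78.3 and 76.1 FPKM and SMC libraries 44.1, 64.3, 293 and 335 FPKM. The groups overlapped, since replicates 3 and 4 were far above replicates 1 and 2 in both. Its log2 difference was 1.81 (SE 0.91, limma q = 0.233). The SMC library was higher in each of the 4 same-numbered pairs, by 1.69, 6.03, 3.74 and 4.41 times. No label ties same-numbered libraries to shared animals or sorts, so these ratios are a description only. When the fit carried a term for replicates 3 and 4, as against 1 and 2, the limma q value was 0.00433, and it was 0.00742 within replicates 3 and 4 and 0.170 within replicates 1 and 2. The labels give no reason for this division, which Thbs1 itself showed in both groups. These values do not replace the limma q value of 0.233 of the fit without this term.

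Thbs2, whose product limits collagen fibril size and vessel growth, lies on chromosome 17 from 14802507 to 14831269 on the minus strand. It had 17.4, 5.02, 12.5 and 15.0 FPKM in pericytes and 49.8, 63.1, 148 and 126 FPKM in SMCs. Its groups were separate by a wide margin, with the lowest SMC library at 2.86 times the highest pericyte library. Thbs2 had a log2 difference of 2.83 (SE 0.48, limma q = 0.00524). The other thrombospondins, which form pentamers, moved the same way. Thbs3 had a log2 difference of 1.94 (limma q = 0.00227), Thbs4 of 3.27 (limma q = 3.8e-04) and Comp of 2.64 (limma q = 0.00732). Thbs4 rose from 75.9 ± 36.2 to 706 ± 158 FPKM. Thbs4 and Comp are also 2 of the 6 genes of the tendon list, in which Tnmd, Fmod and Mkx were higher in SMCs as well and Scx did not pass (limma q = 0.104).

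Tenascins are large glycoproteins built of EGF-like and fibronectin type III repeats. Tnc, which encodes the tenascin known for its induction at sites of injury and at the muscle to tendon junction, lies on chromosome 4 from 63620819 to 63681760 on the minus strand. It had 6.34, 2.31, 5.03 and 6.47 FPKM in pericytes and 17.7, 31.0, 58.3 and 53.0 FPKM in SMCs. No library of one group reached the range of the other. Tnc had a log2 difference of 2.69 (SE 0.43, limma q = 0.00420). Tnc shares 176 exonic bases with the antisense gene 8030451A03Rik, which had at most 1.77 FPKM.

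Tnxb encodes tenascin-X, whose loss is a known cause of a form of Ehlers-Danlos syndrome, and lies on chromosome 17 from 34807480 to 34856760 on the plus strand. It was one of the lowest members, at 1.31, 0.849, 2.33 and 1.90 FPKM in pericytes and 5.003, 3.52, 14.2 and 10.1 FPKM in SMCs. The SMC range began 1.51 times above the highest pericyte value. The log2 difference was 1.70 (SE 0.41, limma q = 0.0226), and the call was lost without pericyte replicate 1 (q = 0.0575) or without SMC replicate 4 (q = 0.0614). With a pseudocount of 0.1 in place of 1 its log2 difference was 2.17. The other tenascins, Tnn and Tnr, were low and did not pass, with log2 differences of 1.13 and 0.06.

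Postn encodes periostin, a fasciclin domain protein that promotes collagen cross-linking and is a marker of activated fibroblasts. The gene lies on chromosome 3 from 54165031 to 54194961 on the plus strand. Levels were 28.1, 26.0, 4.33 and 9.02 FPKM in pericytes and 266, 343, 73.9 and 121 FPKM in SMCs. Replicates 1 and 2 were the high libraries in both groups, and the lowest SMC library was still 2.63 times the highest pericyte library. The log2 difference was 3.57 (SE 0.71, limma q = 0.0108), and 48 genes of those tested had a greater one. Within same-numbered pairs, which no label ties to shared animals or sorts, the SMC library was 9.47 to 17.1 times the pericyte library. Tgfbi, the paralog of periostin, rose from 26.7 ± 7.77 to 146 ± 18.8 FPKM, a log2 difference of 2.44 (limma q = 2.5e-04).

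Spp1 encodes osteopontin, a secreted phosphoprotein that binds integrins and CD44 and is made by macrophages, bone cells and vascular cells. It lies on chromosome 5 from 104864137 to 104870069 on the plus strand. The pericyte libraries had 39.9, 85.1, 67.3 and 37.9 FPKM, and the SMC libraries 311, 634, 137 and 234 FPKM. Replicate 2 was the highest in both groups, and the lowest SMC library, replicate 3, was 1.61 times the highest pericyte library. For Spp1 the log2 difference was 2.36 (SE 0.49, limma q = 0.0132). It was 2.91 (q = 0.0732) within replicates 1 and 2 and 1.81 (q = 0.0655) within replicates 3 and 4, where each group has 2 libraries. Macrophage genes were higher in SMCs in 4 of 7 cases (Mrc1, Cd163, Fcgr1 and Emr1), against 11.2% of all genes tested. Their summed levels overlapped, at 762 to 1750 FPKM in pericytes and 909 to 1506 FPKM in SMCs. Most of each sum came from Lyz2, at 656 to 1640 FPKM in pericytes and 778 to 1317 FPKM in SMCs. Lyz2 and Cd68 had log2 differences of 0.08 and -0.11, and the part of macrophages in the Spp1 values was not tested.

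Of the other genes of the osteopontin family, which are best known from bone and tooth, Ibsp passed with a log2 difference of 2.01 (limma q = 0.0494), from 7.96 ± 3.77 to 42.6 ± 41.0 FPKM. Its SMC libraries had 27.4, 103.8, 21.1 and 18.2 FPKM. Without SMC replicate 2 the SMC mean was 22.2 FPKM and the log2 difference 1.46 (limma q = 0.0386), and with any other library left out the call was lost (limma q = 0.0528 to 0.117). Dmp1 passed with 0.64 (limma q = 0.0396) at a level of 1.48 ± 0.439 FPKM in SMCs. Mepe and Dspp stayed near 0 FPKM in both groups and did not pass.

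Fn1 encodes fibronectin, whose fibrils are assembled by cells through the integrin of the Itga5 and Itgb1 chains. The gene lies on chromosome 1 from 71632094 to 71699774 on the minus strand. It had 13.2, 6.87, 16.9 and 13.97 FPKM in pericytes and 42.4, 52.2, 136 and 148 FPKM in SMCs. The pericyte libraries stayed below the lowest SMC library, which was 2.50 times the highest of them. The log2 difference was 2.66 (SE 0.48, limma q = 0.00722). Apol7d, on the opposite strand, shares 292 exonic bases with Fn1 and had 0.305 to 10.8 FPKM, and since no strand setting is stated, reads in the shared stretch cannot be told apart.

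Vcan encodes versican, a large chondroitin sulfate proteoglycan that binds hyaluronan. It lies on chromosome 13 from 89794915 to 89882117 on the minus strand. It had 2.42, 1.75, 1.05 and 0.803 FPKM in pericytes and 6.98, 8.95, 3.68 and 5.198 FPKM in SMCs. These were low levels, yet the groups did not overlap, and the lowest SMC value was 1.52 times the highest pericyte value. The log2 difference of 1.51 (SE 0.29, limma q = 0.00917) was the smallest of the 10. With a pseudocount of 0.1 it was 2.01, and Thbs1 then had the smallest, at 1.84.

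The partners of versican were measured beside it. Has1 and Has2, which encode hyaluronan synthases, had log2 differences of 3.80 (limma q = 7.1e-04) and 2.30 (limma q = 0.00284). Has1 rose from 13.8 ± 6.27 to 203 ± 79.0 FPKM. Tnfaip6, whose product TSG-6 modifies hyaluronan in inflammation, rose from 40.8 ± 10.1 to 333 ± 77.7 FPKM, a log2 difference of 3.01 (limma q = 1.8e-04). The link protein gene Hapln3 and Has3 also passed, so 5 of 11 genes of this list were higher in SMCs and 0 in pericytes (also 0 at an unadjusted limma p below 0.05), against 11.2% and 10.6% of all genes tested. Has3 was close to 0, with a mean of 0.0457 FPKM in pericytes and 0.306 FPKM in SMCs, a log2 difference of 0.32. The versican relatives Acan, Ncan and Bcan had less than 1 FPKM on average in each group and did not pass.

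Set in order of mean log2(FPKM + 1), the SMC levels ran from Sparc at 11.62 through Sparcl1 (9.49), Spp1 (8.15), Postn (7.41), Thbs1 (7.03), Thbs2 (6.47), Fn1 (6.37), Tnc (5.22) and Tnxb (3.04) to Vcan (2.79). In pericytes the order was Sparc at 9.08, Sparcl1 (6.93), Spp1 (5.79), Thbs1 (5.22), Postn (3.84), Fn1 (3.72), Thbs2 (3.64), Tnc (2.52), Tnxb (1.34) and Vcan (1.28). Sparc came first and Sparcl1 next in all 8 libraries. In SMCs the ranges of neighbours were apart only between Sparc and Sparcl1 and between Tnc and Tnxb, and in pericytes only between Sparc and Sparcl1 and between Sparcl1 and Spp1. The other neighbours overlapped in their library values. Together the 10 genes made up 0.607% to 0.795% of the summed FPKM of an SMC library and 0.0666% to 0.139% of that of a pericyte library.

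**Figure D3:**
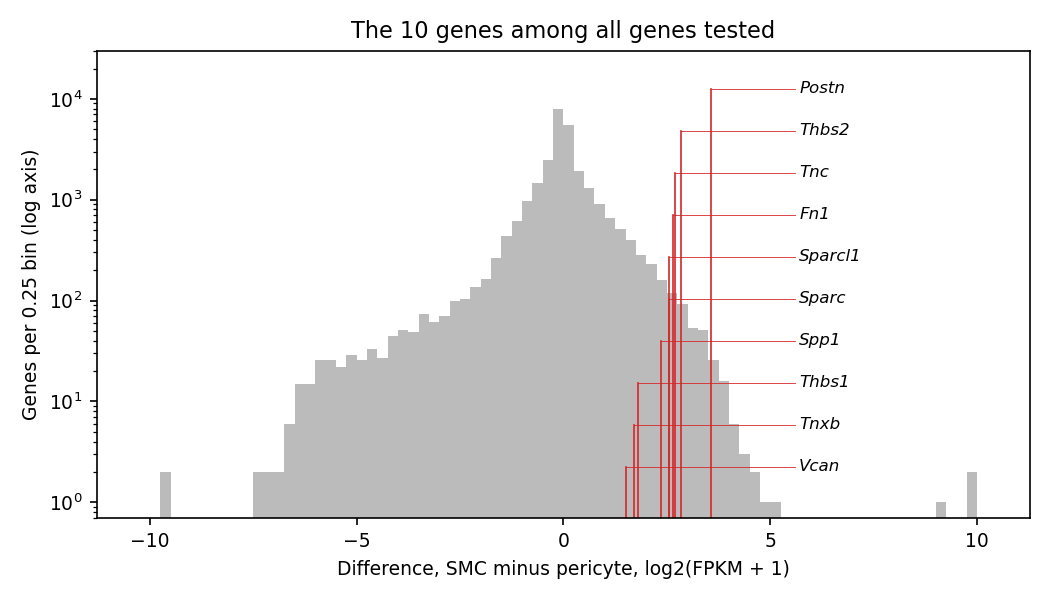
Number of genes in each 0.25-wide bin of the SMC minus pericyte difference in log2(FPKM + 1), on a log axis, for all 27414 genes tested, with a red line at each of the 10 genes. The lines run from 1.51 (Vcan) to 3.57 (Postn), all right of the median of -0.02.

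Within each group the 10 genes did not vary together. In SMCs, replicates 3 and 4 were both above replicates 1 and 2 for 7 genes (Thbs1, Fn1, Tnxb, Thbs2, Tnc, Sparc and Sparcl1), and both below for the other 3 (Postn, Spp1 and Vcan). Over the 13612 genes whose mean reached 1 FPKM, these patterns were seen in 31.2% and 33.6%. The mean of replicates 3 and 4 less that of replicates 1 and 2 in SMCs was 2.53 for Thbs1, 1.57 for Fn1, 1.32 for Tnxb, 1.27 for Thbs2 and 1.21 for Tnc on the log2 scale. It was -1.67 for Postn, -1.30 for Spp1 and -0.73 for Vcan.

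In pericytes the same division was seen for 3 genes with replicates 3 and 4 above (Thbs1, Fn1 and Tnxb) and for 3 with replicates 1 and 2 above (Postn, Vcan and Sparc), against 24.5% and 27.4% of the same genes. Thbs1, Fn1 and Tnxb thus had replicates 3 and 4 above in both groups, as 15.5% of the 13612 genes did, and Postn and Vcan had replicates 1 and 2 above in both groups, as 16.4% did. Sparc was divided in opposite directions, with a difference of -0.42 in pericytes and 0.39 in SMCs. The labels give no reason for this division, and it is described here with no test. Pericyte replicate 2 was the lowest library for Thbs1, Thbs2, Tnc, Tnxb and Fn1, and it had the highest FPKM sum (1190435) and the lowest relative depth (0.866).

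Some marker sums were divided in the same way among the SMC libraries and others were not. The Schwann cell and muscle fibre sums were higher in replicates 3 and 4 than in replicates 1 and 2. The satellite cell and B lymphocyte sums were lower there, and the T lymphocyte sum was not divided. From replicate 1 to 4 the endothelial genes summed to 283, 403, 676 and 853 FPKM, the smooth muscle genes to 1775, 2042, 3421 and 5703 FPKM, the mural cell genes to 75.9, 91.2, 228 and 328 FPKM, and the platelet genes to 130.0, 109, 47.5 and 52.5 FPKM. The macrophage sum (1327, 1237, 909 and 1506 FPKM), the tendon sum (3390, 2858, 3974 and 2609 FPKM) and the fibroblast sum (6516, 5555, 6244 and 6782 FPKM) had no such division. All 6 tendon genes were divided, 3 in each direction. Within the fibroblast list, replicates 1 and 2 were both above replicates 3 and 4 for 5 of 10 genes (Lum, Pi16, Cd34, Dpt and Mfap5), and both below for 2 (the collagen genes Col1a1 and Col1a2), against 33.6% and 31.2% of the 13612 genes given above. Col1a1 had 525, 580, 1702 and 1478 FPKM and Pi16 121, 80.2, 45.6 and 51.1 FPKM in SMC replicates 1 to 4. Whether the cell types behind these lists account for the replicate differences of the 10 genes was not tested.

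**Figure D4:**
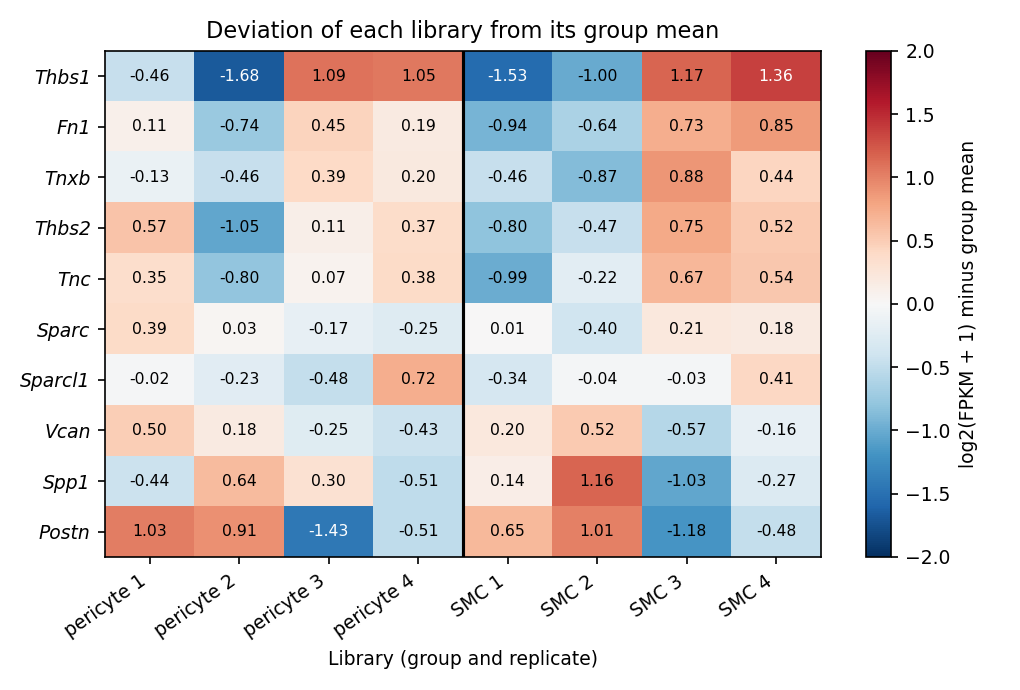
Log2(FPKM + 1) of each gene in each library minus the mean of its group of 4 libraries, red above and blue below that mean, with genes ordered by the difference between SMC replicates 3 and 4 and SMC replicates 1 and 2. Thbs1 goes from -1.53 in SMC replicate 1 to 1.36 in SMC replicate 4, while Postn goes from 0.65 in SMC replicate 1 to -1.18 in SMC replicate 3.

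Related matrix genes were read out of the same fit. There 11.2% of all genes tested were called higher in SMCs and 10.6% higher in pericytes. In a separate fit to the 13349 expressed genes alone, 22.8% were called higher in SMCs. Of the 16 family relatives of SPARC, tenascins, thrombospondins, periostin and osteopontin, 10 were higher in SMCs and 0 in pericytes (also 0 at an unadjusted limma p below 0.05), with a median log2 difference of 1.79. CCN proteins, which bind integrins and growth factors at the cell surface, were higher in SMCs in 5 of 6 cases and in pericytes in 0 (0 at an unadjusted limma p below 0.05). The 4 with the greatest differences were Wisp2 (3.52, limma q = 0.00155), Ctgf (3.29, limma q = 0.00276), Nov (3.13, limma q = 7.7e-04) and Wisp1 (2.32, limma q = 0.00782). Cyr61, the fifth, rose from 115.0 ± 31.4 to 552 ± 159 FPKM, and Wisp3 stayed below 1 FPKM. Of 13 other adhesive glycoproteins, 9 were higher in SMCs and 0 in pericytes (0 at an unadjusted limma p below 0.05), led by Fndc1, Ecm2, Ecm1 and Matn2 with log2 differences of 3.04, 2.96, 2.88 and 2.64. Emilin2, Matn1 and Matn3 had differences between -0.16 and 0.12 and Npnt one of 0.90, and these did not pass.

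Receptors for these proteins were more mixed. Of 18 receptor genes, 10 were higher in SMCs and 1, Itga4, was higher in pericytes, against 11.2% and 10.6% of all genes tested. Sdc2, a heparan sulfate proteoglycan of the cell surface, had a log2 difference of 3.05 (limma q = 8.1e-04) and Cd36, a thrombospondin receptor also found on capillary endothelium and adipocytes, one of 2.92 (limma q = 0.00378). Itga8, an integrin chain of smooth muscle and mesangial cells, had 1.94 (limma q = 0.0185). Itga4, the integrin chain of leukocytes that binds fibronectin and VCAM1, fell from 10.6 ± 4.87 FPKM in pericytes to 1.41 ± 0.569 FPKM in SMCs, a log2 difference of -2.15 (limma q = 0.00854). The other thrombospondin receptor, Cd47, and the osteopontin and hyaluronan receptor, Cd44, had differences of -0.39 and -0.26 and did not pass. Itgb1 passed with 1.60 (limma q = 0.00908), and Itga5, its partner for fibronectin, had 1.92 without passing (limma q = 0.116).

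Proteases that cut versican, thrombospondins or other matrix proteins were higher in SMCs in 4 of 9 cases and in pericytes in 0 (0 at an unadjusted limma p below 0.05), beside the same 11.2% and 10.6% of all genes. These were Bmp1 (1.43), Adamts9 (1.34), Adamts5 (1.21) and Tll1 (0.83), all on the log2 scale. Adamts1 and Adamts4 had greater differences, 2.45 and 2.20, with wide spread, and did not pass (limma q = 0.0997 and 0.260).

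**Figure D5:**
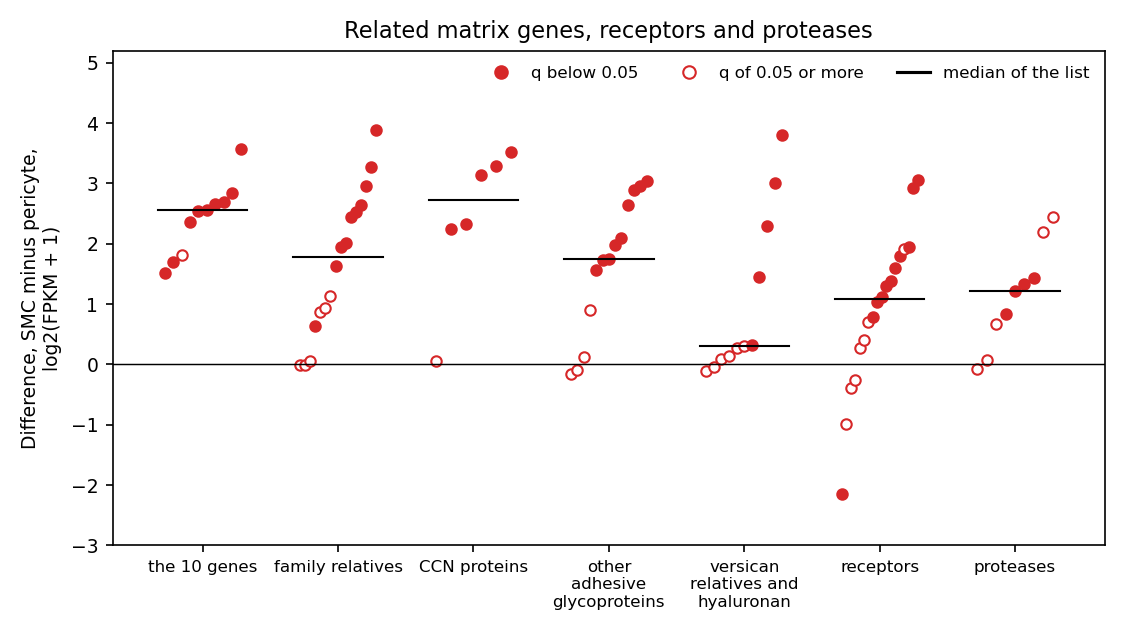
SMC minus pericyte difference in log2(FPKM + 1) for the 10 genes and for the genes of 6 related lists, 1 point a gene, filled where the limma q value was below 0.05, with a bar at the median of each list. Medians run from 0.30 for versican relatives and hyaluronan to 2.73 for CCN proteins, and the receptor list alone holds a filled point below 0, Itga4 at -2.15.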

How the data were processed

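RNA from sorted pericytes and SMCs (4 libraries each) was amplified with a SMART-Seq ultra-low input kit and built into Nextera XT libraries. The authors aligned reads to NCBI Build 37 with Bowtie2 and TopHat and an Ensembl annotation, and deposited FPKM per gene and library. The program that computed FPKM and its strand setting are not given in the sources used here. Values were taken as log2(FPKM + 1) and fitted with limma 3.58.1 in R 4.3.3 without covariates over 27414 genes above 0 FPKM in at least 1 library, which removed none of the 10 genes. In data simulated for this comparison (27414 genes), the test recovered 9 of 50 genes changed by 1 log2 unit, 32 of 50 changed by 2 and 49 of 50 changed by 4. It also called 14 unchanged genes. The changed genes had a mean log2(FPKM + 1) of at least 2, and the simulated noise was independent between libraries, without the division among replicates described above. The study calls the 4 libraries of a group biological replicates and combined several sorts in each, but how the mice were divided among libraries is not stated, so p-values measure the spread between these libraries, and FPKM carry no read counts, so no counting error is given.

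The members, gene lists, marker lists and motifs were chosen with earlier results of these data known, and the lists support nothing by themselves. All 10 members are named. From each list the text names family relatives of a member, up to 4 genes with the greatest difference among those called, and genes singled out after their values were seen. For duplicated symbols in a list the row with the highest sum was used. The other settings were 0.1 in place of 1 as the pseudocount, only genes reaching 1 FPKM in 4 or more libraries, TPM, quantile and median-ratio scaling, a replicate block, replicates 1 and 2 against 3 and 4 as a covariate, an intensity trend and each library left out. Fits within replicates 1 and 2 or 3 and 4 were chosen after seeing the data. Gene positions came from GENCODE version M1 (NCBI Build 37) by Ensembl identifier. Figures were drawn in Python 3.11.15 with matplotlib 3.10.9.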

Additional observations from a re-analysis of the deposited data

Results flagged for a closer look

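Among the 20 sets of 4 libraries (10 genes in each group), 0 had a highest or lowest library that stood apart from the others by Dixon's test at the 95% level on log2(FPKM + 1), and the greatest gap was 0.737 of the range of its set.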

How the results depend on the processing

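The 10 differences kept their sign in all 18 alternatives, and no scaling changed a call among them. The number of genes called higher in SMCs was 9, and 8 to 9 with each library left out, Tnxb being lost without pericyte replicate 1 or SMC replicate 4. With the fold rule it was 7, and 6 to 7 with each library left out, Spp1 being lost without SMC replicate 2 (log2 difference 1.97). At a pseudocount of 0.1 the number under this rule was 9, where Tnxb and Vcan also passed. Within replicates 1 and 2 alone it was 4, or 3 with the fold rule, where fewer libraries were used. Within replicates 3 and 4 alone it was 9, or 8 with the fold rule. With a replicate block the number was 10, since Thbs1 passed (q = 0.0251), and no other call among the 10 changed. Same-numbered libraries had deviations that correlated at 0.327 on average across 13612 genes (0.0794 to 0.474 over the 4 pairs), and 5 of 8 libraries correlated best with their own number. Libraries of different number within replicates 1 and 2 or within 3 and 4 correlated across groups at 0.33 on average, so the division into these replicates is shared by both groups. No label ties same-numbered libraries to shared animals or sorts, and the block was not used for the main values. Among the 73 genes of the 6 related lists, 5 calls were lost with the block, with q values of 0.113 (Ibsp), 0.108 (Dmp1), 0.0540 (Has3), 0.0545 (Sdc4) and 0.0659 (Tll1). In turn 5 were gained, with q values of 0.0154 (Itga5), 0.0232 (Adamts1), 0.0195 (Adamts4), 0.0288 (Adamts15) and 0.0171 (Npnt). Mural cell genes higher in SMCs went from 1 of 7 to 5 of 7 with the block (Rgs5, Pdgfrb, Notch3, Kcnj8 and Abcc9), and smooth muscle genes from 0 of 7 to 1 of 7 (Smtn). Among endothelial genes the block lost Cldn5 (q = 0.0516) and gained Kdr (q = 0.0219). In the muscle fibre list it gained Tnnt3 (q = 0.0268). The limma q value of Thbs1 ran from 0.00433 to 0.444 over the alternatives. Over all genes, a pseudocount of 0.1 raised the calls higher in SMCs under the fold rule from 728 to 1421, and within replicates 1 and 2 there were 1346 calls towards SMCs (477 of them under the fold rule) and 1401 towards pericytes, against 3060 and 2917. TPM scaling moved the median difference of the 13349 expressed genes from -0.05 to 0.16. The reads behind a value are unknown, so no limit from depth can be set for a single gene.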

Other observations

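For the 7 genes past the fold rule, the nearest profiles over the 8 libraries were sought among 10245 genes with a mean log2(FPKM + 1) of at least 2, as the root mean square difference of values centred on each gene's mean. Tnc and Thbs2 were each other's nearest gene, at a distance of 0.178. The nearest to Sparc were Ctsf (0.124), Col5a2 (0.173) and Slc10a6 (0.185), and those to Sparcl1 were Ddr2 (0.165), Gpr133 (0.173) and Cav1 (0.1797). Fn1 lay nearest to Dab2 (0.149), Rcan1 (0.200) and Comp (0.201). After each other, Tnc lay nearest to Lima1 and A430110N23Rik (0.211 and 0.228), and Thbs2 to Aebp1 and Col6a1 (0.227 and 0.240). Postn and Spp1 had no close neighbour by this measure, with Pi16 at 0.373, Pdgfrl at 0.426 and Tmem204 at 0.426 for Postn and with Plod2 at 0.475, Cxcl2 at 0.487 and Rcn1 at 0.494 for Spp1. These genes were ranked over libraries that include both groups, so a shared difference between groups contributes to each distance.

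The remaining marker lists were also measured. Mural cell genes were higher in SMCs in 1 of 7 cases, close to the 11.2% of all genes tested (4 of 7 had an unadjusted limma p below 0.05). This gene was Rgs5, from 15.5 ± 3.78 to 41.1 ± 15.9 FPKM (SD, n = 4, limma q = 0.0240), and the sum of the list was 37 to 97.0 FPKM in pericytes and 75.9 to 328 FPKM in SMCs. Pdgfrb, the gene of the sort marker shared by both gates, had 9.70 ± 6.59 FPKM in pericytes and 47.4 ± 37.2 FPKM in SMCs (limma q = 0.0973). Schwann cell genes (29.8 to 230 FPKM in sum in pericytes, 40.2 to 113 FPKM in SMCs), muscle fibre genes (12.7 to 21.0 and 17.2 to 29.8 FPKM) and satellite cell genes (4.55 to 37.4 and 19.4 to 64.3 FPKM) had 0 genes past the limma test, against 1, 1 and 0 at an unadjusted p below 0.05. Of 4 platelet genes, Pf4 and Itga2b were higher in SMCs, with log2 differences of 2.53 and 2.26, while Ppbp and Gp9 stayed at 1.70 FPKM or less on average in each group.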
